A study of Mus musculus with 12 samples.

Results

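Dlx1, Dlx2, Dlx5, Dlx6, Lhx6, Sox6, Satb1, Adarb2, Prox1 and Nr2f2 are genes by which GABAergic interneurons of the cortex are assigned to a lineage. These 10 genes, chosen by symbol, were followed among 55335 gene identifiers in nuclei of the mouse cortex at postnatal day 21, and each was detected in the inhibitory nuclei of all 12 animals. The animals came from the C57BL/6-Myt1l em1Jdd/J line, which carries the MYT1L S710fsX frameshift and was bred with C57BL/6 J mice, and were 6 WT and 6 heterozygous (Het) animals, with 3 males and 3 females of each genotype. All 12 animals, controls included, had received AAV9 vectors carrying a transposase and a tdTomato reporter into the ventricles at birth, and 4 litters contributed. The UMIs do not tell the Myt1l alleles apart. Over inhibitory nuclei Myt1l read 623, 867 and 802 CPM (UMIs scaled to a fixed total per animal) in WT males, 919, 912 and 646 in WT females, 999, 864 and 904 in Het males and 905, 937 and 1022 in Het females. It was not lower in Het (log2 fold change 0.23 ± 0.09 SE, unadjusted p = 0.0246, adjusted p = 0.842, edgeR), so that the genotypes below rest on the labels.

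Interneurons of the cortex are born in the ganglionic eminences of the ventral forebrain. Progenitors there express the homeodomain factors of the Dlx family, which activate GABA synthesis genes and interneuron migration. Cells of the medial eminence then keep LHX6, SOX6 and SATB1 and become mainly parvalbumin and somatostatin interneurons, whereas cells of the caudal eminence express PROX1, NR2F2 and the RNA-editing family member ADARB2 and become mainly VIP, LAMP5 and CCK interneurons. MYT1L is a zinc finger factor of postmitotic neurons that acts largely as a transcriptional repressor.

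The matrices held 78743 barcodes, of which 0 were shared between animals, and 33118 nuclei remained after the limits on depth and quality and a filter on doublet scores. The upper limits on UMIs and genes, with the lower limit on log genes divided by log UMIs, removed most of the rest. Without these limits 74784 nuclei remained. Results named below as without the upper limits, or without those on depth, lack that ratio limit too. Each animal contributed between 23429386 and 59958572 UMIs. Inhibitory nuclei were those with at least 2 UMIs of Gad1 and Gad2 together and at most 1 UMI of the glutamate transporter gene Slc17a7, which left 4837 nuclei (2069 from WT, 2768 from Het), between 194 and 565 per animal. In these nuclei the summed level of 3 oligodendrocyte markers reached at most 29.5 CPM in WT and 28.3 in Het, and that of 3 astrocyte markers at most 75 and 44.9 CPM.

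Short lists named few nuclei. Pvalb and Sst alone defined 7 nuclei each, Lamp5 82 and Vip 174, and the class of Cck with Cnr1 held 281, where Cck read 3.75 and Cnr1 107 CPM over all inhibitory nuclei. Classes were therefore also built on longer marker lists, a choice made after seeing the data. A nucleus entered a marker class when the listed genes had at least 2 UMIs in sum and at least 2 times the sum of any other list. The Pvalb marker class (Pvalb, Syt2, Cox6a2) held 92 nuclei, the Sst marker class (Sst, Grin3a, Elfn1) 576, the Vip marker class (Vip, Calb2, Crh, Htr3a) 188 and the Lamp5 marker class (Lamp5, Ndnf, Sv2c, Id2) 573. The Cck marker class, with 172 nuclei, rested mostly on Cnr1 (pooled level 1026 CPM), with Cck at 33.5 CPM and Sncg at 0. A striatal marker class (with Drd1, Drd2, Adora2a, Rgs9, Ppp1r1b, Penk and Rarb among its genes) held 664 nuclei, and 2572 nuclei, or 53.2%, met no list. The Pvalb marker class is defined by Syt2 more than by Pvalb (487 against 92.2 CPM), and the Sst marker class by Grin3a more than by Sst (921 against 31.8 CPM). The Lamp5 marker class is defined by Sv2c more than by Lamp5 (597 against 170.4 CPM). In the striatal marker class Rarb (1296 CPM) and Rgs9 (841 CPM) stood over Drd2 (225 CPM), Drd1 (49.8 CPM) and Ppp1r1b (35 CPM). Erbb4 read 2879 CPM in the striatal marker class against 62.2 CPM in excitatory nuclei. The name of this class therefore rests on its list alone. Levels below are per animal, over the summed nuclei of a class, so that fewer expressing nuclei and less RNA per nucleus cannot be told apart.

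As a check of the gate, the 10 genes were compared with excitatory nuclei (1856, Slc17a7 at least 2) in a paired edgeR quasi-likelihood fit, where a gene was called if its adjusted p lay below 0.05 and its log2 fold change exceeded 0.2 in size. Of 7 that passed the filter on low counts, 6 were higher in inhibitory nuclei and 0 lower, where 46.1% of all genes tested were called, 23% higher and 23.2% lower. Lhx6 (log2 fold change 6.37 ± 0.32 SE, adjusted p = 4.73e-18), Dlx1 (6.18 ± 0.29, 5.97e-19), Sox6 (5.55 ± 0.26, 9.24e-10) and Adarb2 (5.00 ± 0.12, 3.95e-16) stood furthest apart, with Prox1 at 1.90 ± 0.23 and Nr2f2 at 0.95 ± 0.19. Satb1, a chromatin organizer that excitatory neurons also use, was at 0.20 ± 0.15 (adjusted p = 0.305), with 87.9 CPM in inhibitory and 74.1 CPM in excitatory nuclei. It passed when Het female 2 was left out (0.32, adjusted p = 0.0463) and without the upper limits (0.55, adjusted p = 2.58e-07). Most members could pass the filter on low counts only through the inhibitory side, so the count describes the gate and supports nothing further.

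In mm10 the 4 Dlx genes lie in 2 pairs, Dlx1 at chr2:71528113-71533981 beside Dlx2 at chr2:71543408-71546754, and Dlx5 at chr6:6877805-6882085 beside Dlx6 at chr6:6863334-6868568. Of the genes of the medial lineage, Lhx6 at chr2:36081953-36105408, Sox6 at chr7:115470872-116038796 and Satb1 at chr17:51736187-51833290 are all on the minus strand. Of the genes of the caudal lineage, Adarb2 at chr13:8202866-8768747 is on the plus strand, and Prox1 at chr1:190118035-190170714 and Nr2f2 at chr7:70351944-70366735 are on the minus strand.

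The sequences upstream of Lhx6, Satb1 and Adarb2 are shown because these genes stand on opposite sides of the division between the lineages. They are the 250 bases before a RefSeq transcript start, on the gene's strand, in GRCm38.p6 (the files' build is mm10). Capitals mark TAATTA, a homeodomain core, and AAGTT, which reads as AACTT on the other strand, the core of the motif bound by MYT1 family zinc fingers.
Lhx6, chr2:36105409-36105658, minus strand: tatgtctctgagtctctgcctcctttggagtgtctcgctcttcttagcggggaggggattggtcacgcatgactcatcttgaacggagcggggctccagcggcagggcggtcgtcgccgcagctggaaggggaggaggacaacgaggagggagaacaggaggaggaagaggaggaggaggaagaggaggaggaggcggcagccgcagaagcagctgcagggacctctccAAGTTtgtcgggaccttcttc
Satb1, chr17:51833291-51833540, minus strand: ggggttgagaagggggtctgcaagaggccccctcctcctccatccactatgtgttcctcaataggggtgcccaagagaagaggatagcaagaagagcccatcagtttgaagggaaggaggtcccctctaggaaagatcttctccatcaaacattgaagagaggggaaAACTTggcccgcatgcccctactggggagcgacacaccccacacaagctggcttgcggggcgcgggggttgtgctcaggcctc
Adarb2, chr13:8202616-8202865, plus strand: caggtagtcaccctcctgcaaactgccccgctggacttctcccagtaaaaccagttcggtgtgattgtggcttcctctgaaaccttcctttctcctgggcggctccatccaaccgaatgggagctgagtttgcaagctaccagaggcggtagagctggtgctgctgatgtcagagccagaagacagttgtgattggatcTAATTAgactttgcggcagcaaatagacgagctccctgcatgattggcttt
Of 20 annotated starts of 8 of the 10 genes, 1 held TAATTA and 6 held AAGTT on either strand, against 4.84% and 35.3% of 32851 promoters of the same length. The Satb1 window also overlaps Gm6934.

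The Dlx genes, factors of the early ventral programme, were detected in few nuclei, from 0.91% (Dlx5) to 6.18% (Dlx1) of inhibitory nuclei after each was thinned to 1500 UMIs, against at most 0.0539% of excitatory nuclei. Over all inhibitory nuclei Dlx1 ranged from 24 to 59.1 CPM over the 12 animals (median 37.2), Dlx6 from 8.41 to 18 (median 13.9), Dlx2 from 2.8 to 11.9 (median 5.85) and Dlx5 from 1.4 to 11.1 (median 5.76). Across classes Dlx1 was highest in the Vip marker class (99 CPM ± 46.7 SD, n = 12) and the Cck marker class (61.7 ± 38), then the Sst (43.3 ± 23) and Lamp5 (32 ± 11.7) marker classes, and lowest in the Pvalb (11.2 ± 15.2, n = 9) and striatal (5.92 ± 9.61) marker classes. No 2 neighbours in this order passed in exact paired sign-flip tests adjusted over the 50 neighbour pairs of all 10 genes, and the nearest to a call was Lamp5 over Pvalb (adjusted p = 0.12, exact test). Dlx6 read between 6.19 and 21.2 CPM in the 6 classes, Dlx2 between 2.1 and 14.1, and Dlx5 between 0 and 7.17. No order among these was resolved. Dlx5 had 0 UMIs in the 92 Pvalb marker class nuclei, which allows up to 7.09 CPM, or 3.26% of nuclei with a UMI, and sets no limit on nuclei that express it. Per kb of gene span, Dlx1 was the highest of the 4 over all inhibitory nuclei, at 7.12 CPM, followed by Dlx6 (2.64) and Dlx2 (2.05), with Dlx5 the lowest. Dlx1 overlaps Dlx1as, and Dlx6 overlaps Dlx6os1 and Dlx6os2, each on the other strand. Sox6 (Sox6os, Gm45025), Prox1 (Prox1os, Gm28172), Nr2f2 (B130024G19Rik), Satb1 (Gm6934) and Adarb2 (Gm10357, Gm48260) overlap such transcripts too. The strand used in counting is not given in the sources used here, so UMIs of these genes and of their partners cannot be told apart.

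**Figure D1:**
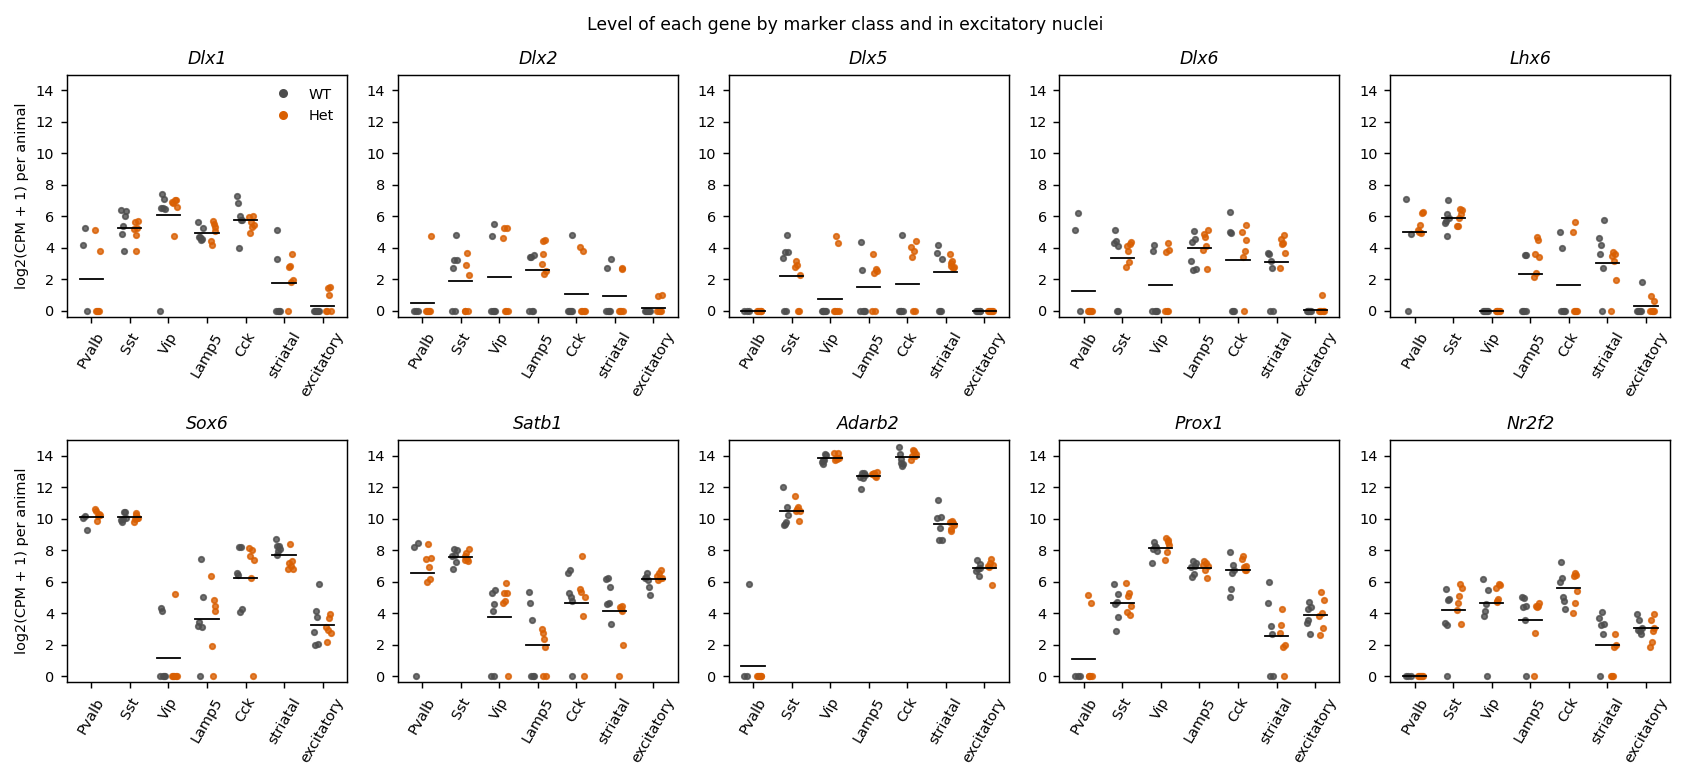
Level of each of the 10 genes per animal, as log2(CPM + 1), in the 6 marker classes and in excitatory nuclei. Points are animals with at least 5 nuclei, grey for WT and orange for Het, and the bar is the mean. Lhx6, Sox6 and Satb1 stand highest in the Pvalb and Sst marker classes, and Adarb2 and Prox1 in the Vip, Lamp5 and Cck marker classes.

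Lhx6, Sox6 and Satb1, the genes of the medial lineage, were highest by value in the Pvalb and Sst marker classes. Sox6, an SRY-box factor that acts after LHX6 in these cells, read 1148 CPM ± 271 (SD, n = 9) in the Pvalb marker class and 1093 ± 169 (n = 12) in the Sst marker class (higher in Pvalb in 5 of 9 animals, adjusted p = 0.867, exact paired test). It read 229 ± 103 in the striatal, 148 ± 115 in the Cck, 31.3 ± 48.9 in the Lamp5 and 6.04 ± 11.8 CPM in the Vip marker class. The Sst marker class stood above the striatal marker class in 12 of 12 animals (p = 0.000488, the smallest that 12 animals allow, adjusted p = 0.0061, exact paired test), while the neighbours below it did not pass. Lhx6, the LIM homeodomain factor that keeps medial identity, read 63.7 ± 28 CPM in the Sst marker class and 50.4 ± 40.2 in the Pvalb marker class, against 12.9, 10.5 and 8.02 CPM in the striatal, Cck and Lamp5 marker classes. Pvalb over striatal did not pass (higher in 7 of 9 animals, adjusted p = 0.195, exact paired test), nor did Sst over Pvalb (7 of 9 animals, adjusted p = 0.244, exact paired test). In the Vip marker class it had 0 UMIs in 188 nuclei, which allows up to 4.68 CPM, or 1.6% of nuclei with a UMI though not of nuclei expressing the gene. The pooled Lamp5 marker class value lay 1.84-fold over that limit, leaving out the counting error of its own 18 UMIs. With 0 in every animal of the Vip marker class no paired difference could be negative, so the paired test of this pair supports nothing. In the Lamp5 marker class Lhx6 lay above 0 in 2 of 6 WT animals (mean 3.59 CPM) and in 6 of 6 Het animals (mean 12.4 CPM). These rest on about 3 UMIs in 245 WT nuclei and 16 in 328 Het nuclei. Lhx6 did not enter the genotype fit of that class, so a genotype difference was not tested there. Satb1, needed for the maturation of medial interneurons, read 197 ± 48.7 CPM in the Sst and 176 ± 125 CPM in the Pvalb marker class, then 51.6 (Cck), 27.4 (striatal), 25.5 (Vip) and 7.88 CPM (Lamp5), with no neighbour pair past the test.

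Adarb2, Prox1 and Nr2f2, the genes of the caudal lineage, were highest by value in the Vip and Cck marker classes. Adarb2, of the adenosine deaminase family that edits RNA, read 16168 CPM ± 4159 in the Cck and 14951 ± 2357 CPM in the Vip marker class (higher in Cck in 7 of 12 animals, adjusted p = 0.693, exact paired test), then 6783 ± 1096 in Lamp5, 1604 ± 945 in Sst, 889 ± 513 in striatal and 6.39 ± 19.2 CPM (n = 9) in the Pvalb marker class. Vip stood above Lamp5 and Lamp5 above Sst in 12 of 12 animals each (adjusted p = 0.0061, exact paired tests), and striatal above Pvalb in 9 of 9 animals (adjusted p = 0.0279). Adarb2 had only 2 UMIs in the Pvalb marker class, so most animals stood at 0 there and their difference could not be negative. The paired test of striatal over Pvalb therefore supports nothing. Prox1, a homeodomain factor required by caudal interneurons, read 294 ± 88.3 CPM in the Vip marker class, above the Cck class (122 ± 57, 11 of 12 animals, adjusted p = 0.00977) and the Lamp5 class (121 ± 29). It read 28.2 ± 16.7 in Sst, 11.5 ± 17.6 in striatal and 6.49 ± 13.1 CPM in Pvalb, with Lamp5 over Sst (adjusted p = 0.0061) and Sst over striatal (adjusted p = 0.0203) past the exact test. Nr2f2, the nuclear receptor COUP-TFII, read 58.8 ± 40.9 CPM in Cck, 33.9 ± 20.8 in Vip, 25.6 ± 17.7 in Sst, 17.2 ± 10.7 in Lamp5 and 5.15 ± 5.26 CPM in the striatal marker class, with 0 UMIs in the Pvalb marker class, which allows up to 7.09 CPM. The pooled Sst marker class value lay 3.99-fold over that limit, leaving out the counting error of its own 64 UMIs. No neighbour pair of Nr2f2 passed, and in all 8 of the 50 neighbour pairs passed. Among them were the Lamp5 over Vip pair of Lhx6 and the striatal over Pvalb pair of Adarb2, whose direction was fixed by values at 0.

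In edgeR fits between classes with the animal as a block, most of the members tested were called. Pvalb with Sst against Vip, Lamp5 and Cck together (12 animals, 668 and 933 nuclei) gave 4 calls among 5 members tested, 2 higher and 2 lower, where 31.6% of all genes were called, 15.1% higher and 16.4% lower. Sox6 was 4.49 ± 0.24 (SE) log2 units higher and Satb1 3.32 ± 0.19 higher, and Adarb2 fell by 3.06 ± 0.20 and Prox1 by 2.83 ± 0.20 on the log2 scale (adjusted p from 5.93e-08 to 1.17e-14, edgeR quasi-likelihood test). Dlx1 did not pass (log2 fold change -0.46 ± 0.19, adjusted p = 0.0684), but did so without WT female 3 (-0.59, adjusted p = 0.0237) and without the upper limits (-0.85, adjusted p = 1.85e-06). Members that passed the filter on low counts through the class where they are high had to differ, so these counts describe the classes. Lhx6 did not pass the filter on low counts here, and without that filter it was 2.99 ± 0.27 higher (adjusted p = 6.33e-27).

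Within the medial side, Pvalb against Sst called 1 of 3 members, at a background of 36.6%, with 17.1% higher and 19.5% lower. This was Adarb2, lower in Pvalb, where it had 2 UMIs against 3395 in the Sst marker class, a pooled ratio of 317 (95% interval 87.8 to 2623, counting error only). Adarb2 could pass the filter on low counts only through the Sst marker class, so its direction was fixed by the filter. Sox6 (0.02 ± 0.13) and Satb1 (-0.32 ± 0.23) did not pass, although Satb1 did so without the upper limits (-0.25, adjusted p = 0.0189) and without the filter on low counts (-0.65, adjusted p = 0.0472). Within the caudal side, Vip against Lamp5 called both members tested, Adarb2 by 1.22 ± 0.08 log2 units and Prox1 likewise higher in Vip (adjusted p = 3.03e-13 and 2.63e-08), where 40.3% of genes were called, 19.6% higher and 20.7% lower. With the classes of Vip and Lamp5 alone, in 3 animals, both were called again (Adarb2 1.31 ± 0.19, Prox1 1.36 ± 0.41, background 29.9%), but Prox1 was not called by DESeq2 (adjusted p = 0.15) or by edgeR without the filter on low counts (adjusted p = 0.055).

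The striatal marker class, against the 5 interneuron marker classes together, was lower in each of the 5 members that passed the filter, where 44.9% of genes were called, 23.8% higher and 21% lower. Prox1 fell by 3.20 ± 0.34, Adarb2 by 2.85 ± 0.22, Dlx1 by 2.78 ± 0.35, Satb1 by 1.94 ± 0.29 and Sox6 by 1.21 ± 0.21 log2 units (adjusted p at most 0.000268, edgeR). Dlx1, Prox1 and Satb1 are so low in the striatal marker class that they could pass the filter on low counts only through the interneurons, so their direction was fixed by the filter and the count supports nothing. With classes defined by the original, shorter gene lists, Adarb2 and Prox1 were 2 of 3 called (background 52.6%), and Sox6 was not lower (0.46 ± 0.32, adjusted p = 0.256). The interneurons of that comparison were almost all of the Vip (174), Lamp5 (82) and Cck (281) classes, where Sox6 averaged 2.89, 27.8 and 152 CPM, with 7 Pvalb and 7 Sst nuclei, whereas the marker classes held 668 Pvalb and Sst nuclei, where it averaged 1104 CPM. How nuclei with striatal projection neuron genes came into a cortical dissection was not tested.

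Sox6 and Adarb2 also divided single nuclei. To set classes of unlike depth side by side each nucleus was thinned to 1500 UMIs, a depth that no nucleus fell below. Of the 4837 inhibitory nuclei 27.6% had Sox6 UMIs alone, 48.8% Adarb2 alone, 2.29% both and 21.3% neither. Without thinning the shares were 31.7%, 50.4%, 3.99% and 13.9%. Over animals the share with Sox6 alone was 28.2% ± 4.94 (SD, n = 12) and that with Adarb2 alone 48.3% ± 5.92. Excitatory nuclei, which should hold little of either, had Sox6 in 1.13% (exact 95% interval 0.702 to 1.72) and Adarb2 in 8.24% (7.03 to 9.59), at a median of 3794 UMIs before thinning against 3524 in inhibitory nuclei.

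By class, Adarb2 alone was found in 97.3% of the 188 Vip, 90.9% of the 573 Lamp5 and 87.2% of the 172 Cck marker class nuclei, and Sox6 alone in 73.9% of the 92 Pvalb and 59.7% of the 576 Sst marker class nuclei. The Pvalb marker class had Adarb2 in 1 of 92 thinned nuclei, where Sox6 was also present. The striatal marker class had neither in 58.4% of thinned nuclei, with 31.2% Adarb2 alone and 9.04% Sox6 alone. Without thinning these shares were 48.8%, 38.3% and 10.1%. Sox6 alone was then found in 95.7% of Pvalb and 67% of Sst marker class nuclei, so the thinned shares understate detection. The 2572 nuclei that met no marker list were also divided, with 33% Sox6 alone, 46.5% Adarb2 alone, 2.57% both and 17.9% neither.

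**Figure D2:**
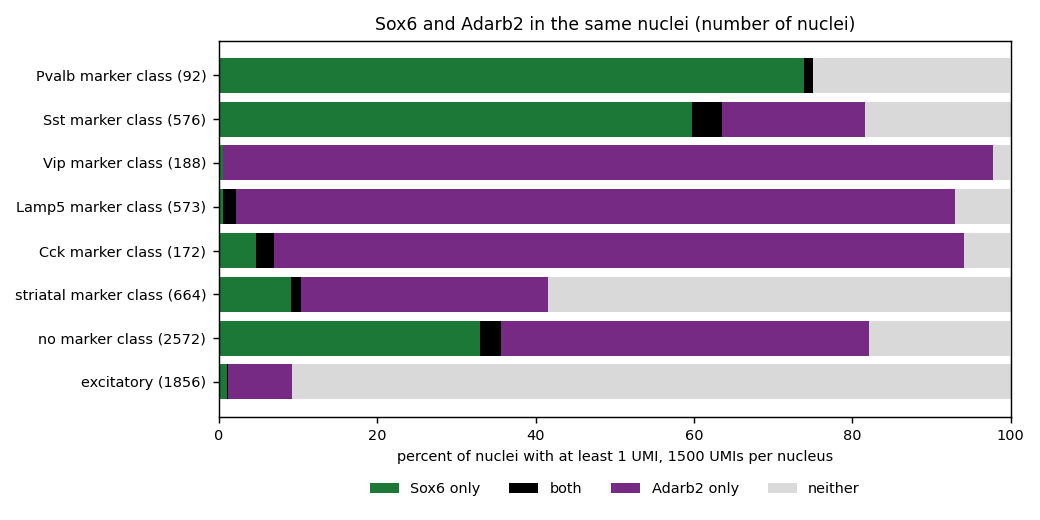
Share of nuclei, in percent, with UMIs of Sox6 alone, Adarb2 alone, both or neither, after thinning to 1500 UMIs, for the 6 marker classes, nuclei with no marker class and excitatory nuclei. Nuclei with no marker class show both colours in large shares (33% and 46.5%), and the share with both stays at 3.82% or less in every bar.

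The Sst marker class was mixed in Adarb2. Over animals its level ran from 760.4 to 4044 CPM (median 1431), with WT male 1 the highest and WT male 2 the lowest, and the other 10 animals lay between 802 and 2740 CPM. Nuclei with Elfn1 and either Sst or Grin3a (252) had Adarb2 UMIs in 9.52%, without thinning, at a pooled 178 CPM, and Sox6 in 88.1%, whereas nuclei with Sst or Grin3a without Elfn1 (277) had Adarb2 in 36.1% at 2699 CPM and Sox6 in 61%. The remaining 47 nuclei, with Elfn1 but neither Sst nor Grin3a, had Adarb2 in 27.7% at 2324 CPM and Sox6 in 57.4%. Among nuclei with Elfn1, Adarb2 was thus high by value in these 47 and low in the 252 that also had Sst or Grin3a. Satb1 was at 273 CPM in nuclei with Elfn1 and either gene and at 134 CPM in those without Elfn1, and Nr2f2 at 16.2 and 44.2 CPM. Grin3a and Elfn1 are not particular to interneurons here, at 645 and 35.1 CPM in the oligodendrocyte precursor gate. The precursor gene Pdgfra was at 4.86 CPM in the Sst marker class against 1007 CPM in that gate. Other interneuron classes held them too, with Elfn1 at 92.1 CPM in the Vip and Grin3a at 74.1 CPM in the Lamp5 marker class. The Sst marker class had them at 229.5 and 921 CPM. Prox1 read 75.9 CPM in the 47 nuclei (13 UMIs), 8.58 CPM in the 252 and 34.4 CPM in the 277. The difference between these sets of nuclei was not tested.

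Outside neurons, several of the genes were also detected. In nuclei of the oligodendrocyte precursor gate (346, Pdgfra and Cspg4) Sox6 read 2502 CPM ± 523 (SD, n = 12) and Adarb2 2015 ± 459 CPM, found in 93.9% and 87.6% of thinned nuclei, with Dlx1, Dlx2 and Dlx5 at 0 UMIs. Oligodendrocyte gate nuclei (1594) had Prox1 at 255 ± 61.9 CPM, in 28.5% of nuclei, against 61.3 CPM over inhibitory nuclei. Astrocyte gate nuclei (292) had Sox6 at 648 ± 356 and Nr2f2 at 27.8 ± 19.1 CPM. Inhibitory nuclei held at most 8.41 CPM of the 2 precursor markers in any animal. Per kb of span, over all inhibitory nuclei, Dlx1 (7.12 CPM) and Adarb2 (6.97 CPM) were the highest of the 10, and Sox6 (0.91) and Satb1 (0.897) were below Prox1 (1.16) and Lhx6 (1.43). Per kb of exon Adarb2 read 301 and Sox6 34.9 CPM. Exons make up only 2.32% and 2.61% of the spans of Adarb2 and Sox6.

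Over the 69 animal-by-class sums of the 6 marker classes, the genes most like each member (Pearson r of log2(CPM + 1), genes with a mean of at least 20 CPM) were described without a test, since sums of the same animal share a library and sums of the same class share markers. Adarb2 was most like Gm48261 (r = 0.92), a transcript within its own span, then Egfem1 (0.90) and the potassium channel Kcnt2 (0.89). Prox1 followed Gm48261 (0.87), the growth factor Igf1 (0.86) and Dlx6os1 (0.85). Sox6 was most like the delta opioid receptor Oprd1 (0.80), Kcnq3 (0.79) and Tmem132c (0.78), and Lhx6 like Lypd6b (0.74) and Sox6 (0.72). Dlx1 was most like Slc35f4 (0.80), Satb1 like Pitpnc1 (0.71) and Nr2f2 like B130024G19Rik (0.76), which overlaps it on the other strand. For Dlx2, Dlx5 and Dlx6 the highest r was 0.64.

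Of 32 related genes of the lineage, listed by name, 16 were tested in the medial against caudal contrast, and 3 were higher and 8 lower, where 15.1% and 16.4% of all genes were (median log2 fold change -0.30, against -0.02 over all genes). The higher genes were Tox (0.91 ± 0.14), Cux2 (0.64 ± 0.13) and Maf (0.50 ± 0.11), and among the lower were the GABAergic antisense transcript Dlx6os1 (fell by 1.46 ± 0.09), Erbb4, the neuregulin receptor (fell by 1.19 ± 0.09), Dlx1as (fell by 0.91 ± 0.15), Zeb2 (fell by 0.52 ± 0.09) and Bcl11b (fell by 0.61 ± 0.13). The medial side was mostly Sst marker class nuclei (576, against 92 Pvalb), and Erbb4 and Tox differed within it. Erbb4 was at a pooled 14027 CPM in Pvalb and 3546 CPM in Sst, against 10750 to 11629 CPM in Vip, Lamp5 and Cck. Tox was lower in Pvalb than in Sst (log2 fold change -3.40 ± 0.32). Against excitatory nuclei 18 of 24 were higher and 1 lower, where 23% and 23.2% of all genes were, led by Dlx6os1 at 8.25 ± 0.15, which at 1.19 CPM in excitatory nuclei could pass the filter only through the inhibitory side. The same holds for others, such as Dlx1as, Maf and Slc32a1, so this count describes the gate. In the striatal marker class 6 of 17 were higher, among them Foxp1 (3.18 ± 0.10), Ebf1 (3.97 ± 0.32) and Bcl11b (1.34 ± 0.10), and 11 were lower, against 23.8% and 21% of all genes. Several could pass the filter only through the side where they are high, such as Ebf1 among the higher and Maf, Tox3 and Dlx1as among the lower. Their direction was fixed by the filter, so these counts support nothing.

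The central comparison of the study is Het against WT, which asks what a single functional Myt1l allele does to these neurons. Over all inhibitory nuclei the levels of the 10 genes overlapped between genotypes. Dlx1 lay between 27.6 and 59.1 CPM in WT animals (median 38.7) and between 24 and 59 CPM in Het animals (median 37.2). Lhx6 lay between 24.6 and 46.8 CPM in WT animals (median 35.5), and between 27.8 and 37.2 CPM in Het animals (median 31.1). For Sox6 the WT animals lay between 374 and 634 CPM (median 558) and the Het animals between 458 and 629 CPM (median 511). The genotypes overlapped in all 3 genes, and the Het animals were spread less widely than the WT animals in Lhx6 and Sox6.

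Satb1 was the member with the most negative log2 fold change. Its WT animals lay between 52.7 and 136 CPM (median 92.5) and its Het animals between 62.9 and 94.7 CPM (median 79.7). WT male 2 was the lowest of all 12 animals and WT male 3 the highest, and 5 of 6 Het values were under the median of WT. Dlx6 was at the other end, with WT animals between 8.41 and 15.3 CPM (median 11.7) and Het animals between 8.83 and 18 CPM (median 16.2), and 5 of 6 Het values exceeded the median of WT. For Adarb2 the WT animals lay between 3586 and 4505 CPM (median 3765) and the Het animals between 3604 and 4454 CPM (median 4068), and for Prox1 between 47 and 68.7 (median 56.8) and between 54.1 and 80.3 CPM (median 63.1). The ranges of these 4 genes overlapped. For Nr2f2 they were 9.53 to 20.8 CPM in WT (median 14) and 7.95 to 21.4 CPM in Het animals (median 15.6), for Dlx2 2.8 to 9.37 (median 7.02) and 3.53 to 11.9 CPM (median 5.73), and for Dlx5 1.4 to 11.1 (median 5.79) and 2.57 to 8.06 CPM (median 5.73).

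**Figure D3:**
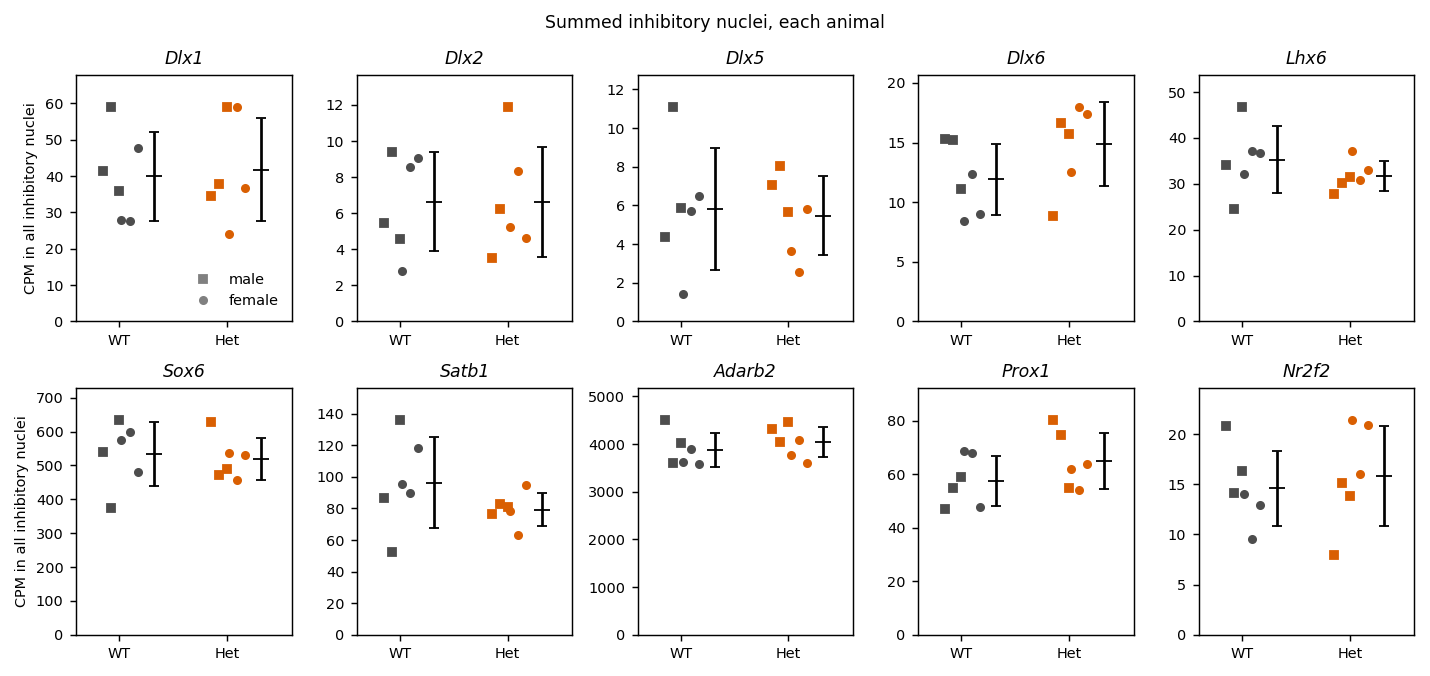
CPM of each gene over the summed inhibitory nuclei of each animal, for WT (grey) and Het (orange), squares for males and circles for females, with the mean ± SD of 6 animals beside the points and axes that start at 0. The genotypes overlap in all 10 genes. Satb1 has means of 96.4 and 79.3 CPM, and Dlx6 of 11.9 and 14.8 CPM.

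In the edgeR fit of genotype 0 of the 8 members tested were called (0% of 9900 genes), and 0 members had an unadjusted p under 0.05, against 504 of all genes. DESeq2 also called 0, with 369 genes at an unadjusted p under 0.05. Satb1 stood at -0.30 ± 0.19 (log2 fold change ± SE, adjusted p = 0.986), Dlx6 at 0.31 ± 0.20 (adjusted p = 1), Lhx6 at -0.16 ± 0.14, Prox1 at 0.17 ± 0.12, Adarb2 at 0.05 ± 0.08, Sox6 at -0.05 ± 0.11, Nr2f2 at 0.15 ± 0.21 and Dlx1 at -0.00 ± 0.23. In simulated counts of these animals edgeR recovered 95% of genes changed by 1 log2 unit and 49% of those changed by 0.5, with 12 false calls. Only genes of higher counts were changed in the simulation. The shares recovered therefore do not hold for low members such as Dlx6, with 239 UMIs over all animals. Each simulated gene also had the spread typical of its count level, not its own. The shares need not hold for members that vary more between animals. Dlx2 and Dlx5 did not pass the filter, and their exact permutation tests gave p = 0.985 and 0.991 (two-sided, 6 against 6 animals).

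Within classes the genotypes again overlapped in the genes whose ranges are given here. In the Sst marker class (0.0316% of all genes called) Sox6 ran from 871 to 1384 CPM in WT and from 893 to 1292 in Het, and 0 of 4 members were called. In Pvalb and Sst together the count was also 0 of 4 (0.0283%). In the Vip marker class Prox1 ran from 143 to 369 CPM in WT and from 168 to 436 in Het, with 0 of 2 called (0% of genes by edgeR, 46 at an unadjusted p under 0.05, and 0 and 29 by DESeq2). In the Lamp5 marker class Adarb2 lay between 3802 and 7546 CPM in WT and between 6525 and 7840 CPM in Het animals, with 0 of 2 called (0% by edgeR, 125 genes at an unadjusted p under 0.05, and 0 and 80 by DESeq2). Vip, Lamp5 and Cck together gave 0 of 4 (0% by edgeR, 207 genes at an unadjusted p under 0.05, and 0 and 136 by DESeq2).

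The original classes gave 0 calls for members too: 0 of 2 in Vip (0.134% of genes), 0 of 3 in Cck (0% by edgeR, 106 genes at an unadjusted p under 0.05, and 0 and 84 by DESeq2) and 0 of 2 in the striatal class (0.0397%). Excitatory nuclei (0.0505%) and the L6 CT gate of excitatory nuclei (0% by edgeR, 164 genes at an unadjusted p under 0.05, and 0 and 125 by DESeq2) gave 0 of 2 each. DESeq2 called 0 members in all of these, and the only member with an unadjusted p under 0.05 by edgeR in any of them was Sox6 in the striatal marker class. The Pvalb, Sst and Lamp5 classes of single genes and the Pvalb and Cck marker classes held too few nuclei per animal to be fitted with the limits on nuclei. Without the upper limits on depth, edgeR called 0 of 3 members in the Pvalb marker class (0 of 4019 genes, 177 at an unadjusted p under 0.05), 0 of 6 in the Cck marker class (0 of 4598, 244 at that p) and 0 of 2 in the Lamp5 class (0 of 1527, 116 at that p), and DESeq2 was not run there.

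**Figure D4:**
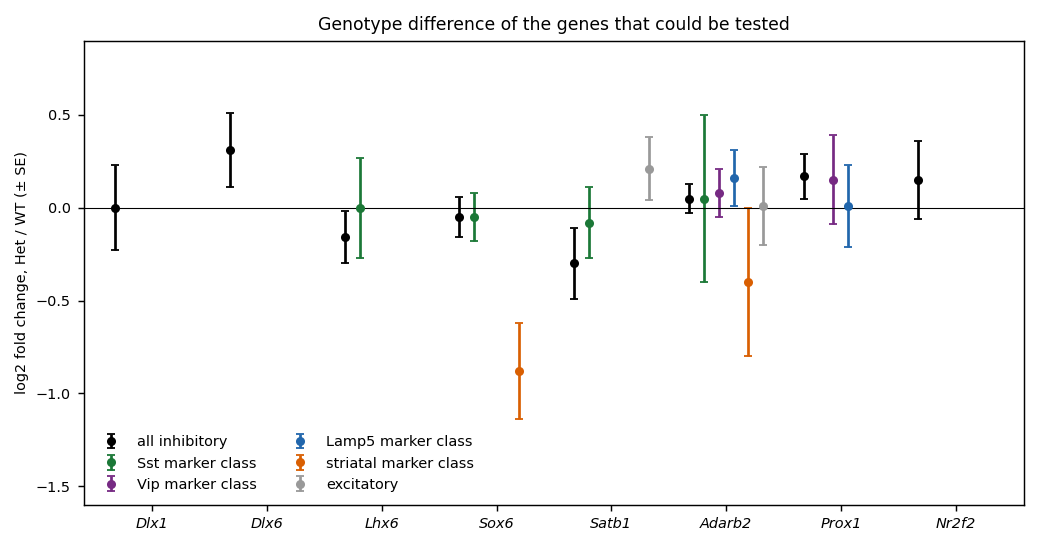
Log2 fold change of Het over WT, with SE, for the members that passed the filter in all inhibitory nuclei, in 4 marker classes and in excitatory nuclei. Sox6 and Adarb2 in the striatal marker class, at -0.88 and -0.40, lie furthest below 0, and Dlx6 over all inhibitory nuclei, at 0.31, furthest above.

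In the striatal marker class Sox6 was lower in Het by value. It read 423, 202 and 312 CPM in WT males, 247, 304 and 272 in WT females, 109, 143 and 339 in Het males and 129, 157 and 112 in Het females. Of the 6 Het animals 5 lay below all 6 WT animals, and Het male 3 was above all but 1 of them. The edgeR log2 fold change was -0.88 ± 0.26 (unadjusted p = 0.0032, adjusted p = 0.172), while 0.385% of all genes were called. Without Het male 3 it was called, at -1.15 (adjusted p = 0.00199), and also without the filter on low counts, at -0.74 (adjusted p = 0.0169).

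Among the 32 related genes Erbb4, the neuregulin receptor gene, fell by 1.04 ± 0.20 in Het nuclei of this class (adjusted p = 0.0487, edgeR), the only related gene called in any Het against WT fit. The number of genes called in this fit, 11 of 2858, depended on the setting. It was 31 by DESeq2, 13 with the replicate block, 11 with the size factors of DESeq2 and 9 with sex as a covariate. It was 5 of 6965 without the upper limits on depth, whereas 0 of 3019 genes were called when no nuclei were removed by doublet score and 0 of 1488 under a stricter gate (331 and 75 at an unadjusted p under 0.05, edgeR), and in the striatal class of the shorter list Erbb4 stood at -0.29 ± 0.28 (adjusted p = 0.921, edgeR). Of the 14 related genes in the fit of the marker class, 6 are higher in this class than in interneurons, and they stood at 0.37 ± 0.12 (Foxp1), 0.34 ± 0.14 (Bcl11b), 0.37 ± 0.38 (Ebf1), 0.20 ± 0.19 (Foxp2), 0.20 ± 0.12 (Meis2) and -0.18 ± 0.20 (Zfhx3). Beside Erbb4 those lower in this class than in interneurons stood at -1.01 ± 0.42 (Zeb2), -0.70 ± 0.25 (Npas3), -0.55 ± 0.16 (Mef2c), -0.38 ± 0.21 (Dlx6os1) and -0.15 ± 0.28 (Tox), and Gad1 and Gad2 at -0.08 ± 0.14 and -0.01 ± 0.13. Only Erbb4 was called among the 14. Members too low for the fit were compared by exact permutation tests, none adjusted. Satb1 averaged 41.6 CPM in WT and 13.2 CPM in Het animals (32 and 22 UMIs, p = 0.0455), and Nr2f2 averaged 8.46 and 1.85 CPM (6 and 3 UMIs, p = 0.0606), both by exact permutation. Lhx6 averaged 18.4 and 7.34 CPM (p = 0.407, exact permutation). For each of these genes all 6 Het animals lay under the WT median, though the genotypes overlapped. Dlx5 averaged 6.27 and 7.29 CPM (p = 0.18, exact permutation), with all 6 Het animals over the WT median, Dlx2 2.41 and 1.8 CPM (p = 0.697, exact permutation) and Prox1 16.6 and 6.33 CPM (p = 0.764, exact permutation). Dlx1 averaged 7.11 and 4.73 CPM, with WT male 2 at 34 CPM and a WT median of 0, while 5 of 6 Het animals lay over that median and the log2 difference tested was 0.77, higher in Het (p = 0.535, exact permutation). Dlx6 averaged 6.11 and 17.4 CPM (5 and 28 UMIs, p = 0.0216, exact permutation), with 5 of 6 Het animals over the WT median. In the class as defined by the shorter list Sox6 stood at -0.45 ± 0.38 (adjusted p = 0.898, edgeR). Whether interneuron nuclei took different parts of this class in WT and Het was not tested. The class held 220 nuclei in WT and 444 in Het, with shares of inhibitory nuclei of 11.7% ± 5.12 and 15.9% ± 4.44 (SD, n = 6 each, exact permutation p = 0.121, adjusted 0.626).

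No class share passed. The shares count nuclei that met a marker list, not cell types, and 53.2% of inhibitory nuclei met no list. Pvalb marker class nuclei had a median of 4747 UMIs, against 3347 in nuclei with no marker class, under an upper limit of 6000 UMIs. The Sst marker class made up 11.8% ± 2.18 of inhibitory nuclei in WT and 12.1% ± 2.15 in Het. The Lamp5 marker class made up 11.8% ± 1.89 and 12% ± 1.56, Vip 4.02% ± 1.28 and 3.83% ± 0.605 and Pvalb 1.53% ± 1.03 and 2.17% ± 0.903. Adjusted p ran from 0.626 to 0.861 in exact permutation tests, whose smallest possible p is 0.00216. The striatal class of the shorter list was at 9.03% ± 3.58 and 14.1% ± 3.49 (exact permutation p = 0.039, adjusted 0.234).

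Whether the genotype effect differed between medial and caudal marker classes was tested on the difference in log2(CPM + 1) of each animal. None of the 10 members passed in exact permutation tests. Lhx6 had the smallest p, with the mean difference between class types -1.59 log2 units in Het relative to WT (exact permutation p = 0.0628, adjusted 0.433), and under a stricter gate the sign turned (0.23, adjusted p = 0.921). Dlx5 was at 1.04 ± 2.71 and -0.96 ± 1.24 (exact permutation p = 0.13, adjusted 0.433), and without WT male 2 it passed (exact permutation p = 0.00433, adjusted 0.0433). Over all animals Dlx5 had 10 medial and 6 caudal UMIs in WT, and 5 and 11 in Het. Some animals stood at 0, so its differences depend on the 1 CPM added before the logarithm.

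Sex by genotype terms were called for 0 of 8 members (0% of 9900 genes by edgeR, 339 with an unadjusted p under 0.05). Nr2f2 had the smallest p among members, with 14.1, 16.3 and 20.8 CPM in WT males from lowest to highest, 7.95, 13.8 and 15.1 in Het males, 9.53, 12.9 and 14 in WT females and 16, 20.9 and 21.4 in Het females. Het females lay above all 3 WT females, and Het males overlapped WT males. The interaction, male minus female, was -1.07 ± 0.39 log2 units (unadjusted p = 0.012, adjusted p = 1).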

How the data were processed

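Single-nucleus RNA-seq count matrices of 12 P21 cortices were used. The deposited values are expected counts that the authors made by mapping to mm10 with ScaleRna and calling nuclei with CellFinder, without normalization; a UMI fitting several genes was divided among them, and 92.6% of entries are whole. The submitters' notes name Seurat 4.3.0 and DESeq2 1.38.3. The study's limits were applied: 800 to 6000 UMIs, 300 to 3000 genes, a mitochondrial share up to 1%, and log genes divided by log UMIs not below 0.9, and the 5% with the highest Scrublet scores were removed (scanpy 1.11.5). The paper reports more P21 nuclei than the 33118 used here, so the fits do not rest on its set of nuclei. Expected counts were summed per animal and class, rounded and tested with edgeR 4.0.16 (TMM, filterByExpr, robust quasi-likelihood), with animals of at least 10 nuclei for genotype and 5 for marker classes, Benjamini-Hochberg over all genes, in R 4.3.3. DESeq2 1.42.0 was an alternative. Permutation tests ran in numpy 2.4.6, and exact intervals of detection in scipy 1.17.1. Animals are the replicates, and p-values measure the spread between them. Identifiers matched the mm10 annotation for 54587 genes. Members and lists were chosen with earlier results of these data known, and the named genes are the 10 members, their markers, up to 5 called related genes per direction and the 3 genes most like each member. The fits were tested on simulated data, with 9684 genes, for all inhibitory nuclei. Pvalb, Sst and Lamp5 single-gene classes could not be fitted within these limits, and marker classes were added after seeing the data. Replicates were left out in turn, and other alternatives are given in the closing section. Intervals and floors cover counting error only. Part of the striatal marker list is not reported here.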

Additional observations from a re-analysis of the deposited data

Results flagged for a closer look

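In the WT group the share of inhibitory nuclei in the Lamp5 marker class had 1 animal far from the others: WT female 2 was the lowest at 8.16%, while the nearest WT animal was at 11.7% and the highest at 13.4%. The gap was a ratio of 0.675 of the range. Chance gives such a gap in about 1 in 20 groups, and 34 groups of 6 animals were examined.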

How the results depend on the processing

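Counts of members called changed by more than 1.5 times in these settings. Without a filter on low counts, where all 10 members were tested, Pvalb against Sst marker classes gave 5 (with 1322 of 22059 genes called), Vip against Lamp5 4 (marker classes, 1279 of 22835) and 1 (original classes, 276 of 13690), inhibitory against excitatory 10 (5357 of 33919), striatal against interneuron classes 4 (original, 2417 of 24853) and 8 (marker, 3077 of 28502), and Het against WT in the striatal marker class 1 (58 of 22361). Without the upper limits on depth, the medial against caudal contrast gave 7 of 8 tested (2809 of 7557 genes), Pvalb against Sst 2 of 4 (2379 of 5532), inhibitory against excitatory 10 of 10 (7783 of 13803), striatal against interneuron classes 4 of 6 (original, 3339 of 6804), and 16 of 50 neighbour pairs passed. Under the stricter gate fewer members passed the filter, and striatal against interneuron classes gave 1 of 1 (original, 674 of 1359 genes) and 3 of 3 (marker, 1258 of 2593 genes), while DESeq2 gave 1 of 2 for Vip against Lamp5 (138 of 856 genes). Leaving out each animal in turn gave 0 to 1 calls in the striatal marker class for genotype, 5 (without Het male 1) to 10 neighbour pairs and 0 to 1 members for the difference between class types. The genotype log2 fold change of Dlx1 over all inhibitory nuclei changed sign with DESeq2 (0.04), its size factors (0.00), no filter (0.02), the stricter gate (0.07), sex as a covariate (0.01) and the replicate block (0.03), and ranged from -0.13 to 0.15 as animals were left out. That of Sox6 turned to 0.05 with the stricter gate and ranged from -0.14 to 0.01 without single animals. Without the upper limits Lhx6 read 0.00, Adarb2 -0.08 and Nr2f2 -0.02, none past the threshold. Sox6 in Pvalb against Sst turned to -0.02 (DESeq2), -0.01 (size factors), -0.33 (no filter) and ranged from -0.05 to 0.09 without single animals. The Lhx6 difference between class types turned to 0.23 with the stricter gate. Causes were not tested. Same-numbered animals of the 2 genotypes correlated between -0.31 and 0.16 in their deviations, so the numbers do not pair them, and the replicate block called 0 members, with 455 genes at an unadjusted p under 0.05. Depth limits the values of the low Dlx genes and of the small Pvalb marker class.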
